A study of Mus musculus with 24 samples.

Results

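The genes described here are those of the ATF4 stress response and of the amino acid supply that ATF4 is known to control, in B16-F10 mouse melanoma cells lacking MITF, TFE3, TFEB or any combination of these factors. A list of 38 gene symbols was matched to the deposited expression table, and 34 of them had a row among its 12010 genes. Slc7a3, Vldlr, Stc2 and Cbs had no row. The 34 members comprise 8 transcription factors and cofactors, 7 serine, glycine and folate enzymes, 5 enzymes of asparagine, proline and transamination, 2 genes of cysteine and glutathione turnover, 8 amino acid transporters, 3 stress kinases or their feedback, and the translation inhibitor Eif4ebp1.

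All samples are B16-F10-luc2 cells, a mouse melanoma line that carries a luciferase reporter. The 8 lines are the parental cells, the MITF KO, TFE3 KO and TFEB KO, the TFEB/TFE3 DKO, MITF/TFE3 DKO and MITF/TFEB DKO, which lack the named pair of factors, and the TKO, which lacks all of them, each with 3 libraries. The labels name no stressor, and every line grew in the same serum-containing medium until the dish was nearly full. The KO cells are clonal, and whatever else sets a clone apart cannot be told apart from the loss of a factor. Per the paper, TFE3 and TFEB were removed from the parental cells and from the MITF KO cells. All lines without MITF therefore share the same MITF edit. The labels do not say whether the libraries of a line came from separate cultures, so that p-values measure only the spread between these libraries, which may be technical.

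ATF4 is a transcription factor whose synthesis rises when kinases that sense amino acid shortage, unfolded protein or other stress phosphorylate the initiation factor eIF2, which lowers translation in general while favouring that of the Atf4 mRNA. Together with C/EBP partners it binds composite DNA elements and raises genes for amino acid synthesis, amino acid import and tRNA charging, along with factors such as CHOP and TRIB3 that redirect or limit the response. MITF, TFE3 and TFEB are related factors that bind E-box sequences. MITF is known as the melanocyte lineage factor, and TFE3 and TFEB for lysosomal and nutrient genes. Because ATF4 is controlled largely at translation, the mRNA levels below say nothing of the amount of ATF4 protein.

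The composite element read by ATF4 and a C/EBP partner, TGATGNAA, was looked for on both strands of RefSeq promoters, 250 bases before to 50 bases after the gene start. It was present in 10 of the 33 listed genes with a promoter sequence (30.3%), against 4.51% of 27025 genes with a promoter and 2.58% of 9647 genes that were also in the expression table. The stretches with the match upstream of the start are shown for the 7 members with a row, since these genes include several of the largest differences below. They are written 5′ to 3′ on the strand of the gene, with the matching bases in capitals and GRCm39 (mm39) coordinates. TTGCATCA is the element read on the other strand.
Asns, chr6:7693210-7693258, minus strand: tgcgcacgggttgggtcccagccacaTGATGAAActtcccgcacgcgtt
Atf3, chr1:190915607-190915666, minus strand: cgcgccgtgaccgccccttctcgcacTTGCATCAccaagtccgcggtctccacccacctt
Chac1, chr2:119181504-119181563, plus strand: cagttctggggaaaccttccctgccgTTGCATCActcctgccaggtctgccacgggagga
Got1, chr19:43513113-43513172, minus strand: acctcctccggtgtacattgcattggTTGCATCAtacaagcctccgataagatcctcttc
Nupr1, chr7:126224719-126224778, minus strand: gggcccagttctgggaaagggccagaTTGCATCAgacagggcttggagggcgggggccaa
Pycr1, chr11:120534644-120534703, minus strand: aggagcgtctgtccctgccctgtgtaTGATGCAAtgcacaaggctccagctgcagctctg
Slc7a11, chr3:50398076-50398154, minus strand: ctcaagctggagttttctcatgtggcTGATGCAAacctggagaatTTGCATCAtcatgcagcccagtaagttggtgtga

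Slc7a11 held 2 matches, 1 on each strand, and the match in Asns began 23 bases before the start. Slc1a4 and Trib3 held matches that were not wholly upstream, and Vldlr held 1 but had no expression row. On 1 strand alone the element was in 9.09% of the listed genes against 2.41% of all. The E-box CACGTG bound by the MITF family was in 3 of the 33 listed genes (9.09%) against 8.09% of all genes and 12% of those in the table. The shorter core of the cAMP response element, TGACG, was in 16 of them (48.5%), against 23% and 35.9%. A match is a description of these letters and not a site of binding, and Cth, Slc7a3, Slc1a5, Eif4ebp1 and Slc7a5 had no promoter entry.

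Levels are given as CPM, reads scaled to a fixed library total and corrected by edgeR's TMM factors, and since the kit reads transcript 3′ ends, levels need no correction for gene length. The libraries held 18300902 to 26667877 reads on genes, and at this depth 1 read was worth 0.0364 to 0.0545 CPM. Tfeb mRNA averaged 2.88 to 5.12 CPM for the lines without TFEB and 8.80 to 18.3 CPM for the others, and Tfe3 mRNA 8.63 to 19.8 CPM for the lines without TFE3 and 35.7 to 56.4 CPM for the others. Mitf mRNA averaged 335 to 1397 CPM for the lines without MITF and 687 to 876 CPM for the others, so that its level does not check the edit. All 7 melanoma markers were present, with a summed level of 31455 to 32931 CPM for the parental libraries, 46483 to 48574 CPM for the MITF KO, 20431 to 22815 CPM for the MITF/TFEB DKO and 18851 to 19938 CPM for the TKO. Of 8 markers of immune, endothelial, epithelial and stromal cells 3 had a row, and their sum was 0.377 to 31.6 CPM. In bulk RNA, fewer cells with a transcript and less transcript per cell cannot be told apart.

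Each KO line was first compared with the parental cells. DEGs had to change 2-fold or more with limma's unadjusted p under 0.05 and a gene is said to have risen or fallen where limma's Benjamini-Hochberg adjusted p over all 12010 genes was under 0.05.

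In the MITF KO, 5 of the 34 members were DEGs (14.7%), all of them higher, against 3.29% of all genes called higher and 2.99% called lower. They were Atf5, Chac1, Ddit3, Nupr1 and Trib3. By the adjusted p 16 members rose and 1, Slc7a11, fell, against 20.1% and 17.8% of all genes. The median log2 fold change of the members was 0.23, and that of all genes was 0.00.

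The TFE3 KO went the other way for part of the same pathway. Ddit3 and Trib3 were DEGs, both lower, against 1.34% of all genes called lower and 0.366% called higher. Atf5, Chac1, Ddit3, Mthfd2, Nupr1, Slc7a11 and Trib3 fell and the glutamine carrier Slc1a5 rose, so that 7 fell and 1 rose against 7.78% and 4.5% of all genes. Both DEGs lay within 0.1 (log2) of the fold threshold, and a pseudocount of 5 in place of 1 left 0 called.

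In the TFEB KO, 0 members were DEGs, where 0.192% of all genes were called higher and 0.591% lower. Without adjustment 7 members were higher and 4 lower at limma's p under 0.05, and edgeR also called 0. Chac1, Nupr1 and the carrier Slc38a2 rose by the adjusted p and none fell, against 2.25% and 2.59% of all genes.

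The TFEB/TFE3 DKO had 1 DEG, Nupr1, which was higher (0.575% of all genes were called higher and 0.383% lower). By the adjusted p 13 members rose and none fell, against 4.72% and 4.09% of all genes, and these included Atf4, Asns, Trib3, Chac1 and 6 of the 8 transporters. Of the 13, 7 rose in every fit with 1 library left out (Chac1, Gpt2, Nupr1, Slc1a5, Slc38a2, Slc6a9 and Trib3). The count was 7 without TFEB/TFE3 DKO replicate 3 and 8 without replicate 1 of that line or of the parental cells. In the MITF/TFE3 DKO, Atf5 and Nupr1 were DEGs and both were higher, where 3.5% of all genes were called higher and 2.37% lower. There 13 members rose and 4 fell, namely Atf4, Cebpg, Mthfd2 and the arginine carrier Slc7a1, against 20.2% and 21.7% of all genes. In every fit with 1 library left out, 8 of these 13 rose and 2 of the 4, Mthfd2 and Slc7a1, fell.

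The MITF/TFEB DKO had 10 DEGs among the 34 members (29.4%), all of them lower, against 4.94% of all genes called lower and 8.78% called higher. They were Atf4, Chac1, Cth, Got1, Mthfd2, Psph, Shmt1, Slc7a1, Slc7a11 and Trib3. By the adjusted p 21 members fell and 4 rose (27.3% and 28.8% of all genes), and the members' median was −0.67 (log2). Of the 10 DEGs, 5 lay within 0.1 of the fold threshold: the count was 5 with a pseudocount of 5, 6 after subtraction of the median of neighbouring genes, and 7 to 12 when single libraries were left out.

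In the TKO 6 members were DEGs, all of them lower: Atf4, Chac1, Ddit3, Got1, Slc7a11 and Trib3, against 6.41% of all genes called lower and 8.28% called higher. There 19 members fell and 2 rose (27.9% and 28.3% of all genes), with a median of −0.54 (log2). Over the 8 lines, the mean level was lowest in the MITF/TFEB DKO for 16 members and in the TKO for 8, and it was highest in the MITF KO for 16. The lowest and highest lines were not counted over all genes.

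Some of the smaller changes against the parental cells did not pass the adjusted p in every fit that left out 1 library. Of these 24 fits, the call was lost in 15 for Slc38a2 (TFEB KO), in 5 for Slc7a11 (MITF KO), in 4 for Slc1a5 (TFE3 KO) and Slc7a5 (TKO), in 3 for Asns (MITF KO), and in 2 for Psph (MITF/TFEB DKO) and Atf4 (MITF/TFE3 DKO). Without replicate 1 of the TFE3 KO the members that fell there went from 7 to 11, without replicate 1 of the TFEB KO the risers there went from 3 to 6, and without replicate 1 of the MITF/TFEB DKO those there went from 4 to 2.

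**Figure D1:**
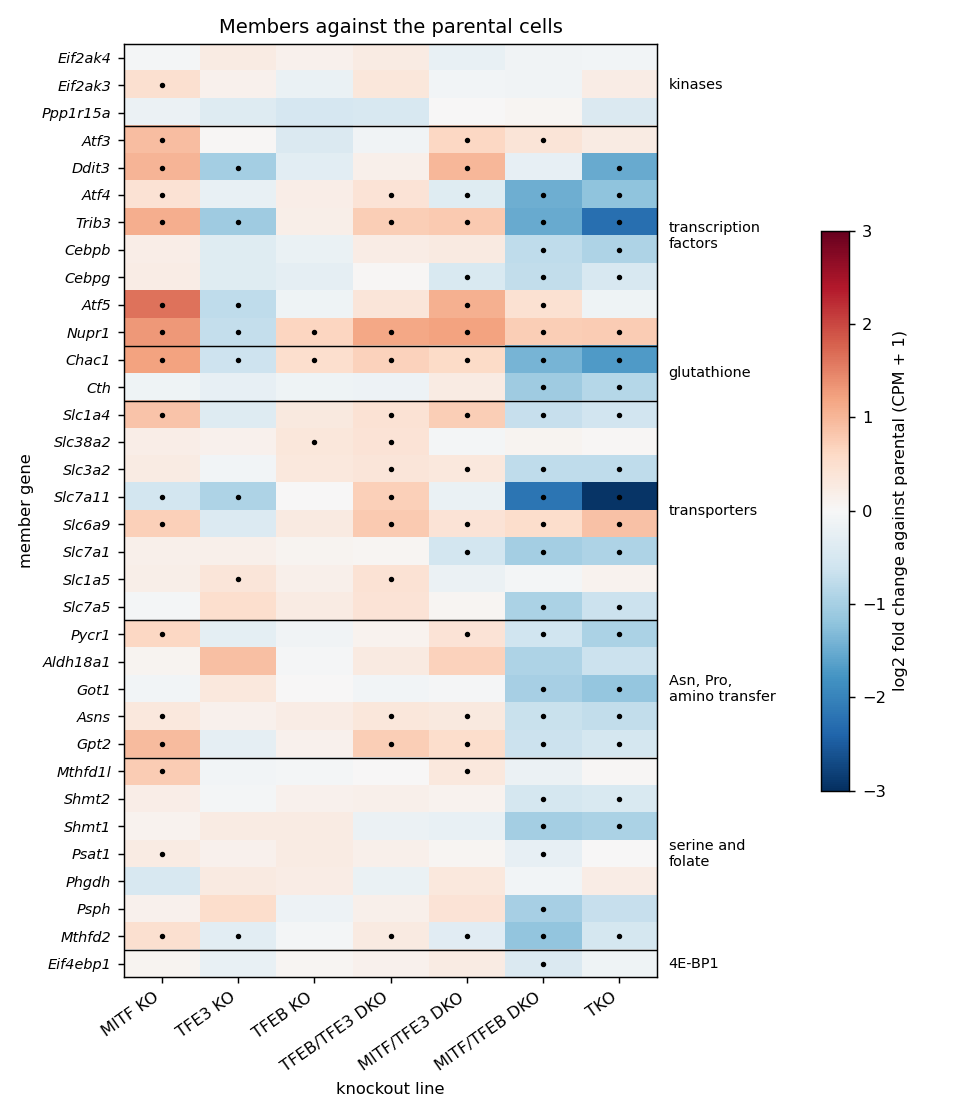
Log2 fold change of each member (rows, grouped by role) against the parental cells in the 7 KO lines (columns), with colour for size and direction (means of 3 libraries) and a dot where the adjusted p was under 0.05. The columns of the MITF/TFEB DKO and the TKO hold most of the low values, with medians of −0.67 and −0.54, and the MITF KO column most of the high ones.

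Among the transcription factors, Atf4 itself had 1050.2, 1156 and 1010.2 CPM for the parental libraries and 1396, 1619.9 and 1351 CPM for the MITF KO. It had 409, 402 and 351 CPM for the MITF/TFEB DKO and 489, 458 and 444 CPM for the TKO. The libraries of the latter pair of lines all lay below every library of the other 6 lines, and those of the MITF KO all lay above the parental ones. Atf4 was higher by 0.44 ± 0.12 (log2 ± SE, adjusted p = 0.0047) in the MITF KO, and it differed by −1.47 ± 0.12 in the MITF/TFEB DKO (adjusted p = 2.9e-10) and −1.21 ± 0.12 in the TKO (adjusted p = 7.5e-09). In the MITF/TFE3 DKO, with 885, 847 and 785 CPM, it fell by 0.35 ± 0.12 (adjusted p = 0.018). The genes around Atf4 had a median of −0.11 and −0.05 in the lines MITF/TFEB DKO and TKO.

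Trib3 encodes a pseudokinase that binds ATF4 and CHOP and dampens the response. It had 73.3, 66.6 and 58.4 CPM for the parental libraries, 136.5, 159 and 133 CPM for the MITF KO, and 36.9, 28.3 and 28.4 CPM for the TFE3 KO. The MITF/TFEB DKO had 21.7, 25.5 and 20.6 CPM and the TKO 13.8, 13.8 and 11.1 CPM. The ranges of these 5 lines did not overlap, with the MITF KO at the top and the TKO at the bottom. Trib3 rose by 1.10 ± 0.12 in the MITF KO (adjusted p = 1.9e-07), and it fell in the other 3, with differences of −1.06 ± 0.12 in the TFE3 KO (adjusted p = 2e-06), −1.51 ± 0.12 in the MITF/TFEB DKO (adjusted p = 4.3e-10) and −2.27 ± 0.12 in the TKO (adjusted p = 2.5e-13).

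Ddit3 encodes CHOP, a C/EBP-family factor tied to cell death under lasting stress. Its libraries had 243, 245 and 202 CPM for the parental cells, 440.0, 532 and 439 CPM for the MITF KO and 136, 102 and 102 CPM for the TFE3 KO. In the MITF/TFEB DKO they had 213, 196 and 172 CPM, which overlapped the parental ones, whereas in the TKO they had 83.2, 77.6 and 77.1 CPM and lay below all others. Ddit3 rose by 1.03 ± 0.11 in the MITF KO (adjusted p = 9.1e-08) and fell in the TFE3 KO (−1.02 ± 0.11, adjusted p = 6.5e-07) and in the TKO (−1.52 ± 0.11, adjusted p = 4.4e-11). In the MITF/TFEB DKO its difference was −0.25 ± 0.11 (adjusted p = 0.058). The TKO lay below the MITF/TFEB DKO by −1.27 ± 0.11 (adjusted p = 5.8e-09). Ddit3 overlaps Mars1 on the opposite strand, and the strand setting of the authors' counting is not given in the sources used here. Of the 50-base stretches in the last 500 bases of its coding transcripts, 78.3% also occurred on either strand of other genes' transcripts, mainly Mars1. The members with the next highest shares were Phgdh (41%), Slc6a9 (30.9%), Slc1a4 (27.7%), Eif4ebp1 (25.9%), Aldh18a1 (21.2%) and Shmt1 (16.5%). Any effect of shared stretches on the counts was not tested.

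Atf5, a factor related to ATF4, had 124, 120 and 106 CPM for the parental cells, 341, 419 and 335 CPM for the MITF KO, 187, 157 and 138 CPM for the MITF/TFEB DKO and 115, 106 and 99.8 CPM for the TKO. It was highest in the MITF KO, where it rose by 1.63 ± 0.13 (adjusted p = 1.3e-09), and the TKO overlapped the parental cells. Nupr1, a small stress-induced chromatin cofactor, had 38.8, 37.2 and 35.3 CPM for the parental cells and 88.2, 94.3 and 94.7 CPM for the MITF KO, a rise of 1.29 ± 0.13 (adjusted p = 3.2e-08). It stayed above the parental level in both lines where Atf4 was lowest, with 56.9, 67.8 and 64.3 CPM for the MITF/TFEB DKO and 61.2, 63.8 and 65.9 CPM for the TKO, and it rose there by 0.74 ± 0.13 (adjusted p = 3.7e-05) and 0.76 ± 0.13 (adjusted p = 2.6e-05). The C/EBP partners Cebpb and Cebpg fell in both lines. Atf3, a stress-induced repressor, was low throughout (4.30 to 17.1 CPM) and rose in the MITF KO by 0.93 ± 0.15 (adjusted p = 3.1e-05). It rose in the MITF/TFEB DKO by 0.38, a call lost without parental replicate 1 (0.20, adjusted p = 0.27) or MITF/TFEB DKO replicate 1 (adjusted p = 0.12). There its neighbouring genes had a median of 0.65, and the part of that region in the difference was not tested.

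**Figure D2:**
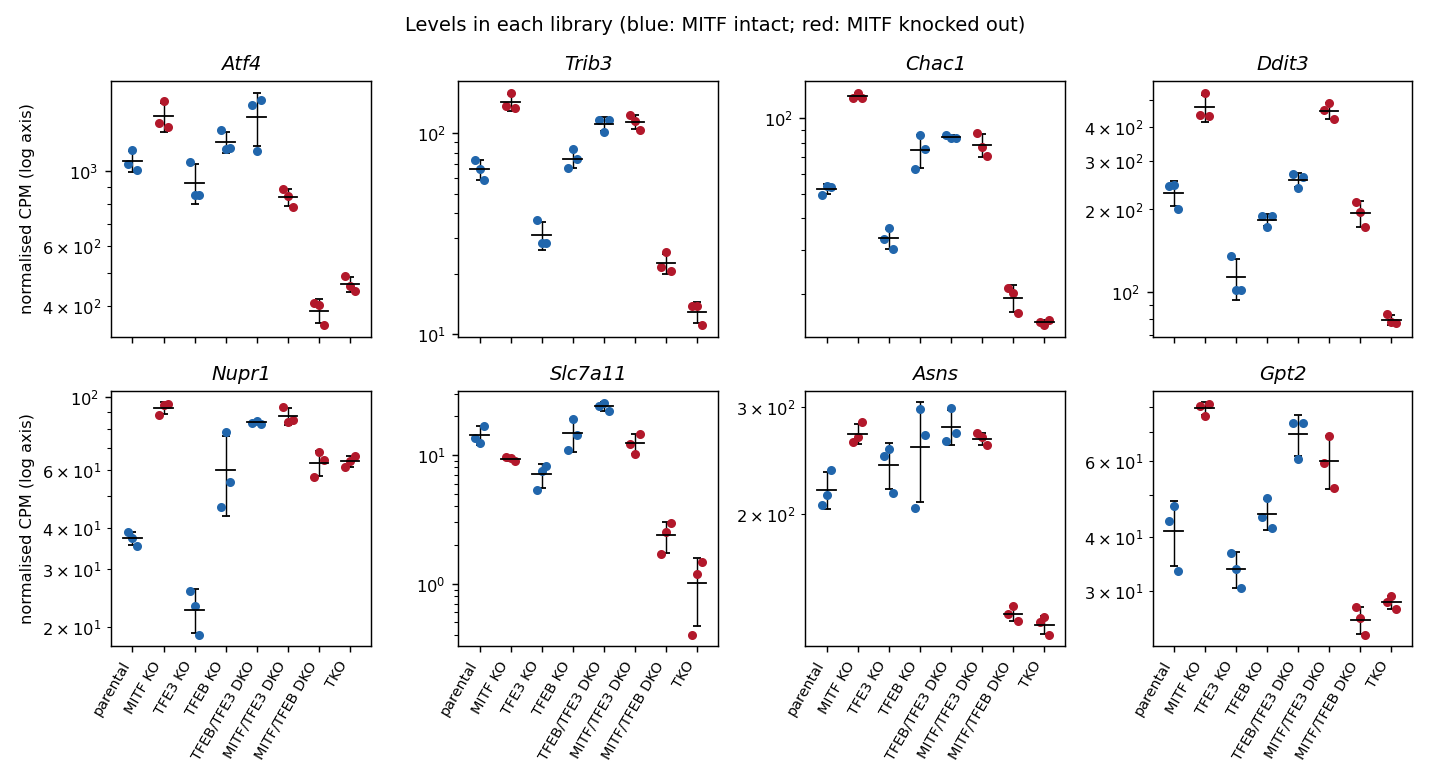
CPM of selected members in each of the 24 libraries on a log axis, with the mean ± SD of each line as bars, blue points for lines with MITF and red points for lines without it. Atf4, Trib3 and Chac1 lie lowest in the lines MITF/TFEB DKO and TKO, whereas Nupr1 stays above the parental libraries there.

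In serine and folate metabolism the mitochondrial enzyme Mthfd2, which makes formyl-group donors from folate, had 601, 622 and 575 CPM for the parental cells and 807, 894 and 821 CPM for the MITF KO. It had 275, 255 and 254 CPM for the MITF/TFEB DKO and 406, 416 and 431 CPM for the TKO. None of these ranges overlapped, and the TKO lay between the MITF/TFEB DKO and the parental cells. Mthfd2 fell by 1.19 ± 0.07 in the MITF/TFEB DKO (adjusted p = 1.4e-12) and fell by 0.52 ± 0.07 in the TKO (adjusted p = 1.1e-06), and the TKO was above the MITF/TFEB DKO by 0.68 ± 0.07 (adjusted p = 1.4e-07).

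The other enzymes that make serine and glycine changed less evenly. Shmt1, which converts serine to glycine in the cytosol, had 26.5, 33.9 and 28.2 CPM for the parental cells. It had 14.9, 13.2 and 13.7 CPM for the MITF/TFEB DKO and 14.8, 14.8 and 14.8 CPM for the TKO. Both KO lines lay below the parental cells without overlap, and they overlapped each other. Shmt1 fell by 1.02 ± 0.11 in the MITF/TFEB DKO (adjusted p = 8e-08) and fell by 0.94 ± 0.11 in the TKO (adjusted p = 2.6e-07). Psph, the last enzyme of serine synthesis, fell to 0.499 of its parental level in the MITF/TFEB DKO (log2 SE 0.32, adjusted p = 0.011), from 25.8, 21.5 and 33.5 CPM to 8.51, 13.6 and 17.5 CPM. Shmt2, the mitochondrial counterpart of Shmt1, fell in both lines, although the genes around it had medians of 0.38 and 0.29 there. The first enzyme of the pathway, Phgdh, had 102, 102 and 118 CPM for the parental cells and 85.1, 109 and 113 CPM for the MITF/TFEB DKO, which overlapped (difference −0.08 ± 0.22, adjusted p = 0.78). Psat1, the next enzyme, fell by 0.24 in the MITF/TFEB DKO and had a difference of 0.00 in the TKO, while its neighbours on chromosome 19 had a median of −0.60 in both, and relative to them the MITF/TFEB DKO value was 0.36. Mthfd1l, a mitochondrial folate enzyme, rose by 0.76 in the MITF KO and had a difference of −0.17 in the MITF/TFEB DKO.

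Asns, which makes asparagine and is among the best known ATF4 targets, had 206, 215 and 236 CPM for the parental cells, 263, 267 and 283 CPM for the MITF KO, 136.5, 140.5 and 133 CPM for the MITF/TFEB DKO and 132, 135 and 126 CPM for the TKO. The last 2 lines overlapped each other and lay below all libraries of the other lines. It rose by 0.31 ± 0.10 in the MITF KO (adjusted p = 0.018) and fell by 0.68 ± 0.10 in the MITF/TFEB DKO (adjusted p = 4.7e-06) and fell by 0.74 ± 0.10 in the TKO (adjusted p = 1.3e-06). Got1, an aspartate aminotransferase, fell in these lines, by −1.01 ± 0.11 (adjusted p = 1.1e-07) and −1.16 ± 0.11 (adjusted p = 1e-08), from 245, 254 and 281 CPM to 121, 135 and 130.1 CPM and to 116, 109.8 and 120.3 CPM. Got1 lies on chromosome 19 with 3 other members, Psat1, Slc3a2 and Aldh18a1, and the genes around it had medians of −0.81 and −0.84; the part of the region in its fall was not tested. The alanine aminotransferase Gpt2 and the proline enzyme Pycr1 rose in the MITF KO (by 0.94 and 0.63) and fell in both other lines.

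Chac1, which breaks down glutathione, followed Trib3 closely. It had 49.4, 53.6 and 53.4 CPM for the parental cells, 120.4, 126 and 120.4 CPM for the MITF KO, 33.3, 36.5 and 30.3 CPM for the TFE3 KO, 21.2, 20.2 and 16.8 CPM for the MITF/TFEB DKO and 15.5, 15.1 and 15.8 CPM for the TKO. These 5 ranges did not overlap. Chac1 rose by 1.21 ± 0.10 in the MITF KO (adjusted p = 2.8e-09) and fell by 1.39 ± 0.10 in the MITF/TFEB DKO (adjusted p = 1.3e-10) and fell by 1.69 ± 0.10 in the TKO (adjusted p = 3e-12). Cth, which makes cysteine from cystathionine, fell by 1.06 ± 0.16 in the MITF/TFEB DKO (adjusted p = 5.3e-06) and fell by 0.86 ± 0.16 in the TKO (adjusted p = 7.4e-05), from 11.6, 10.2 and 11.3 CPM to 3.65, 5.08 and 5.81 CPM and to 6.23, 5.04 and 5.72 CPM.

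The largest fall of any member against the parental cells was that of Slc7a11, the cystine-importing subunit of system xc. It had 13.6, 12.3 and 16.9 CPM for the parental cells, 9.65, 9.40 and 8.99 CPM for the MITF KO, 24.1, 25.5 and 22.0 CPM for the TFEB/TFE3 DKO, 1.69, 2.52 and 2.95 CPM for the MITF/TFEB DKO and 0.401, 1.19 and 1.46 CPM for the TKO. The TFEB/TFE3 DKO lay above all other libraries and the TKO below them, where the lowest library had 11 reads. Slc7a11 fell by 2.18 ± 0.21 in the MITF/TFEB DKO (adjusted p = 8.3e-09) and fell by 2.95 ± 0.21 in the TKO (adjusted p = 4.1e-11) on the log2(CPM + 1) scale, which understates changes at such levels. Unlike Chac1 and Trib3 it did not rise in the MITF KO, where it fell by 0.55 (adjusted p = 0.043 in limma and 0.056 in edgeR).

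Slc7a1, an arginine and lysine carrier, had 235, 231 and 245 CPM for the parental cells, 148, 152 and 187 CPM for the MITF/TFE3 DKO, 129, 104 and 119 CPM for the MITF/TFEB DKO and 122, 126 and 124 CPM for the TKO. Those 3 lines lay below the parental cells without overlap, and Slc7a1 differed by −0.55 ± 0.09 (adjusted p = 3.8e-05), −1.01 ± 0.09 (adjusted p = 1.8e-09) and −0.93 ± 0.09 (adjusted p = 7.2e-09). Slc3a2, the partner chain of Slc7a11 and Slc7a5, and Slc7a5, the leucine carrier, fell in the lines MITF/TFEB DKO and TKO with differences from −0.95 to −0.65, where their neighbours had medians of −0.41 to −0.48. The serine and alanine carrier Slc1a4 fell there too. The glycine carrier Slc6a9 rose instead, by 0.52 ± 0.15 (adjusted p = 0.0054) and 0.89 ± 0.15 (adjusted p = 3e-05). Its 3′ end overlaps B4galt2 and Ccdc24 on the opposite strand, and their part in its counts was not tested. Slc38a2 and Slc1a5 did not pass the test in either line.

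Eif2ak4, the GCN2 kinase that senses uncharged tRNA, ranged from 17.6 to 27.7 CPM and passed the test in no line against the parental cells. Eif2ak3, the PERK kinase of the endoplasmic reticulum, ranged from 3.79 to 10.6 CPM and passed the test only in the MITF KO (0.48, adjusted p = 0.045), a call that was lost in 8 of the 24 fits with 1 library left out, with values from 0.37 to 0.48. Ppp1r15a, which restores eIF2 after stress and is an ATF4 target, ranged from 9.13 to 20.1 CPM and passed in none. Eif4ebp1, which binds eIF4E, fell by 0.44 in the MITF/TFEB DKO while its neighbours had a median of 0.49.

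The next comparison asked what the loss of a second factor adds where MITF is already absent. When the MITF/TFEB DKO was set against the MITF KO, 15 of the 34 members were DEGs (44.1%), all of them lower, where 3.99% of all genes were called lower and 6.91% higher, and the 15 became 9 with a pseudocount of 5. By the adjusted p 28 members fell and none rose, against 23.9% and 25.1% of all genes, and 26 members fell in every fit with 1 library left out. Of the 34 members 32 had a value below 0, against 48.4% of all genes, and the median was −0.98, against 0.02 for all genes. In the MITF/TFE3 DKO against the MITF KO, 0 members were DEGs, where 3.39% of all genes were called higher and 1.67% lower. Without adjustment 2 members were higher and 14 lower at limma's p under 0.05, and edgeR called 0. By the adjusted p 13 fell and 1, Phgdh, rose (0.80 ± 0.22, adjusted p = 0.0073), against 19.7% and 18.1% of all genes, and the rise was lost without MITF KO replicate 2. Of the 13, 8 fell in every fit with 1 library left out. The largest falls there were those of Mthfd2 (−0.83 ± 0.07, adjusted p = 3.1e-09) and Atf4 (−0.79 ± 0.12, adjusted p = 1.8e-05). Set against the MITF/TFE3 DKO, the MITF/TFEB DKO had 14 members called lower and none called higher, against 4.05% and 5.7% of all genes.

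Trib3 fell from 136.5, 159 and 133 CPM for the MITF KO to 21.7, 25.5 and 20.6 CPM for the MITF/TFEB DKO, a difference of −2.61 ± 0.12 (adjusted p = 2.1e-14). For Chac1 the same difference was −2.60 ± 0.10 (adjusted p = 1.1e-15), for Atf4 −1.91 ± 0.12 (adjusted p = 3.5e-12) and for Mthfd2 −1.68 ± 0.07 (adjusted p = 1.8e-15). Loss of TFEB could be read a second time without MITF, as the TKO against the MITF/TFE3 DKO, in other libraries but in lines with the same MITF edit. The paper does not say whether the TKO was made from a DKO. Whether it shares other clonal changes with the MITF/TFEB DKO was not tested. In this second comparison 25 members fell and 2, Slc1a5 and Slc6a9, rose, against 24.2% and 26.6% of all genes. Of the 25, 21 fell in every fit with 1 library left out. The largest fall was that of Trib3 (−3.05 ± 0.12, adjusted p = 1.4e-15), and without MITF/TFE3 DKO replicate 1 none rose. All 25 that fell here were among the 28 that fell in the first, an overlap not counted over all genes. Of the 34 members 27 had the same sign in both, and 67.4% of all genes had the same sign. Ddit3 differed by −1.28 ± 0.11 in the first (adjusted p = 1.5e-09) and −2.51 ± 0.11 in the second (adjusted p = 6.3e-15), and Mthfd2 by −1.68 and −0.18.

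With MITF present, the loss of TFEB was read in cells without and with TFE3. In the TFEB/TFE3 DKO against the TFE3 KO, which shares no library with either comparison above, 17 members rose and 2, Got1 and Shmt1, fell, against 14.5% and 14% of all genes. Of the 17, 12 rose in every fit with 1 library left out, and neither fall held in all of them. Slc38a2 lost its rise in 15 of the 24 fits. Of the 28 members that fell with TFEB loss in the MITF KO, 15 rose here, among them Atf4, Atf5, Chac1, Ddit3, Nupr1, Slc7a11 and Trib3. Of the 34 members 7 had the same sign in both, against 44.7% of all genes. Falls in the 1 comparison that were rises in the other were not counted over all genes. Nupr1 went from 25.6, 23.1 and 18.9 CPM for the TFE3 KO to 83.4, 84.6 and 82.5 CPM for the TFEB/TFE3 DKO (1.85 ± 0.13, adjusted p = 5.1e-10). In cells with TFE3 the TFEB KO had 3 members that rose against the parental cells and none that fell. Of the 25 members that fell in the TKO against the MITF/TFE3 DKO, 2, Chac1 and Nupr1, rose in the TFEB KO, and 16 of the 34 had the same sign in both, against 50.5% of all genes. Averaged over both TFE3 backgrounds, the members' median effect of TFEB loss was 0.15 (log2) with MITF and −0.93 without it, against −0.01 and 0.03 for all genes. Of the 34 members 21 were above 0 with MITF and below 0 without, which was not counted over all genes.

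**Figure D3:**
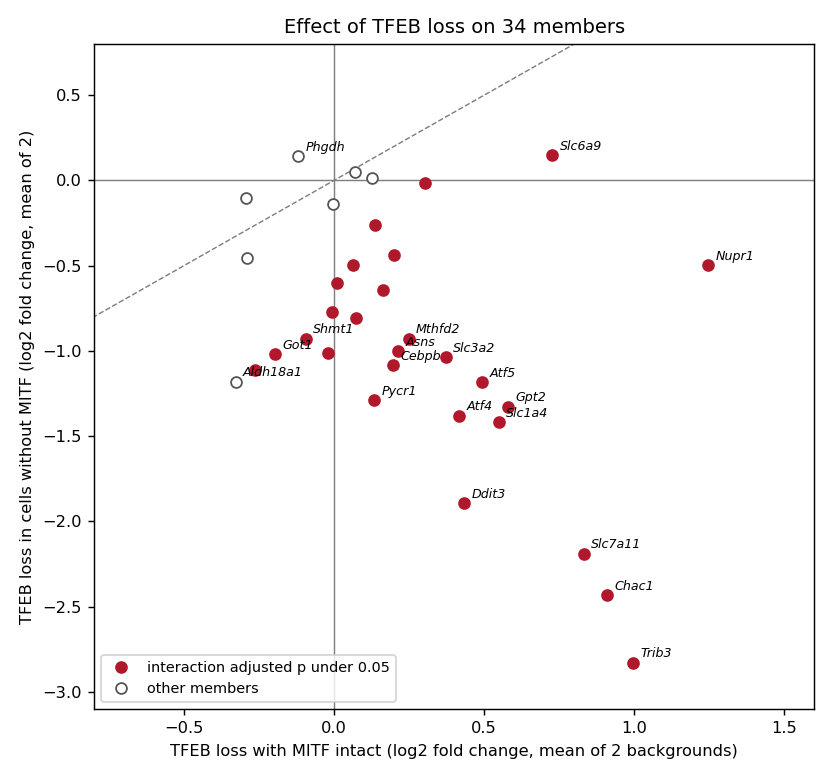
Effect of TFEB loss on each of the 34 members (log2, mean over both TFE3 backgrounds) in lines with MITF (horizontal axis) and without MITF (vertical axis), with a dashed line where the effects are equal and filled points where the interaction passed the adjusted p. The lower right part holds 21 members, and Trib3 and Chac1 lie farthest below the dashed line.

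The difference between these effects was tested itself, as the interaction MITF x TFEB, the effect of TFEB loss without MITF minus that with MITF. It was below 0 at the adjusted p for 27 members and above 0 for none, against 23.9% and 26.9% of all genes, and it remained lower for 26 members in every fit that left out 1 library. The interaction was −3.83 ± 0.12 for Trib3 (adjusted p = 5.8e-17), −3.34 ± 0.10 for Chac1 (adjusted p = 4.4e-17) and −3.02 ± 0.21 for Slc7a11 (adjusted p = 6.5e-11). The members that did not pass were Aldh18a1, Atf3, Eif2ak3, Eif2ak4, Phgdh, Ppp1r15a and Slc1a5. After subtraction of the median of neighbouring genes, 2 members, Psat1 and Slc7a5, had values of 0.01 and 0.00.

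The interaction MITF x TFE3 passed for 4 members below 0 and 1 above (5.18% and 5.14% of all genes), namely Atf5, Ddit3, Slc1a5 and Slc7a1 below and Eif4ebp1 above, with values from −0.44 to 0.31. TFEB x TFE3 was above 0 for 13 members and below 0 for none (14.4% and 12% of all genes), and was largest for Mthfd2 (1.07 ± 0.07, adjusted p = 3.8e-11). Averaged over the 4 backgrounds, loss of TFEB lowered 24 members and raised 3 (22.2% and 24.9% of all genes), and loss of MITF lowered 20 and raised 6 (33.7% and 35.1%). The single backgrounds differed for MITF: the MITF KO against the parental cells had 16 risers and 1 faller (20.1% and 17.8% of all genes), whereas the TKO against the TFEB/TFE3 DKO, which shares no library with it, had 1 riser and 26 fallers (30.1% and 27.7%). Of the 16 risers 11 fell in the latter, among them Atf4, Asns, Chac1, Ddit3 and Trib3, an overlap not counted over all genes. Of the 34 members 8 had the same sign in both, against 61.2% of all genes. In every fit with 1 library left out, 13 of the 16 rose and 23 of the 26 fell. The riser of the latter, Atf3, was lost in 14 of the 24 fits. Averaged in the same way, loss of TFE3 lowered 4 (11.8%) and raised none, against 8.32% and 4.95% of all genes, so that this count lay near the share. These 4 were Ddit3 (−0.46 ± 0.05, adjusted p = 8e-06), Chac1 (−0.35 ± 0.05, adjusted p = 0.00013), Trib3 (−0.40 ± 0.06, adjusted p = 0.00018) and Atf5 (−0.36 ± 0.07, adjusted p = 0.0013). All 4 averages were lower at the adjusted p in each fit with 1 library left out. The single backgrounds differed for TFE3 too. In the TFEB/TFE3 DKO against the TFEB KO 28 members were above 0 and 6 below (median 0.20), where 51.0% of all genes were below 0. The mean levels of all 4 were higher in that DKO than in the TFEB KO. They were 257 against 183 CPM for Ddit3, 111 against 74.9 CPM for Trib3, 150 against 106 CPM for Atf5 and 84.5 against 74.7 CPM for Chac1.

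Across the 8 line means, 29 of the other 33 members had a correlation above 0 with Atf4 (Pearson's r, median 0.78) and 20 had one of at least 0.7. Shmt2 (r = 0.96), Mthfd2 (0.93), Slc7a1 (0.93) and Asns (0.93) were most like Atf4, and Chac1 (r = 0.98) most like Trib3. Nupr1 (r = 0.09), Slc6a9 (−0.15), Atf3 (−0.16), Ppp1r15a (−0.30) and Phgdh (−0.30) had little or none of the Atf4 pattern. Over 8 points that share libraries, scaling and clones these values are descriptions only. How many of all genes reach such correlations with Atf4 was not counted.

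The 9 members with a row and a match to the composite element had a median MITF x TFEB interaction of −1.74, and 8 of them, all but Atf3, passed below 0. The 21 members with a promoter and no match had a median of −0.80, and 16 of them passed below 0. The ranges overlapped, from −3.83 to −0.17 with a match and from −2.33 to 0.26 without, so that members such as Ddit3 and Atf4 had large interactions with no match in this window.

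**Figure D4:**
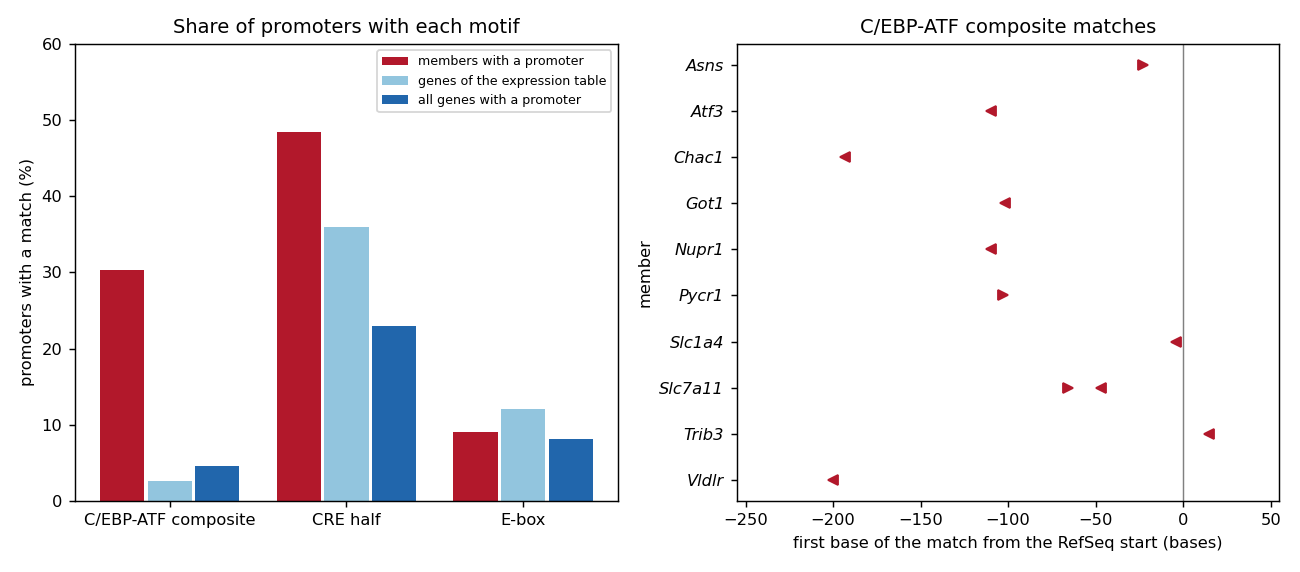
Share of promoters, in percent, that hold each searched motif among the listed genes, the genes of the expression table and all genes with a RefSeq promoter, with TGACG labelled as CRE, and the first base of each composite match relative to the gene start, with an arrow for its strand. The composite element was in 30.3% of the listed genes, 2.58% of table genes and 4.51% of all, and the E-box in 9.09%, 12% and 8.09%.

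Further lists of the pathway were counted in the same way by the adjusted p. For the MITF KO 20.1% of all genes rose and 17.8% fell, for the TFE3 KO 4.5% rose and 7.78% fell, and for the TFEB/TFE3 DKO 4.72% rose and 4.09% fell. These shares were 28.8% and 27.3% for the MITF/TFEB DKO and 28.3% and 27.9% for the TKO, and MITF x TFEB was above 0 for 26.9% and below 0 for 23.9%. A count near these shares is not a result about a list.

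Of 20 cytosolic aminoacyl-tRNA synthetases, which charge tRNA with amino acids, 7 rose and 1 fell in the MITF KO, 0 rose and 11 fell in the MITF/TFEB DKO and 1 rose and 10 fell in the TKO. Their MITF x TFEB interaction was below 0 for 15 and above 0 for 1. Sars and Gars, the seryl- and glycyl-tRNA synthetases, were DEGs between MITF/TFEB DKO and MITF KO, with differences of −1.17 ± 0.12 (adjusted p = 5.6e-08) and −1.01 ± 0.10 (adjusted p = 1.2e-08).

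Of 17 other reported ATF4 targets, 10 rose and 2 fell in the MITF KO, none rose and 7 fell in the TFE3 KO, 8 rose and none fell in the TFEB/TFE3 DKO, 4 rose and 8 fell in the MITF/TFEB DKO, and 5 rose and 9 fell in the TKO. Their interaction was below 0 for 11 and above 0 for none. Ddit4, an inhibitor of mTORC1, and the mitochondrial folate enzyme Aldh1l2 rose in the MITF KO by 2.12 ± 0.16 (adjusted p = 2.9e-10) and 1.97 ± 0.10 (adjusted p = 3.1e-13), and like Nupr1 they were still above the parental cells in the TKO, by 1.09 ± 0.16 and 2.01 ± 0.10. The secreted stress factor Gdf15 rose by 1.98 ± 0.22 in the MITF KO and had a difference of −0.06 in the MITF/TFEB DKO, and Bcat1, a branched-chain aminotransferase, fell by 1.41 ± 0.09 there.

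Among 16 genes of eIF2 and its control, 2 rose and 6 fell in the MITF KO and 1 rose and 8 fell in each of the MITF/TFEB DKO and TKO lines. Eif2ak2, the kinase PKR that responds to double-stranded RNA, fell in the MITF KO (−1.98 ± 0.10) and in the TKO (−1.79 ± 0.10), and had a difference of 0.13 in the MITF/TFEB DKO. Of 13 other folate and glycine genes, 3 rose and 5 fell in the MITF/TFEB DKO. Aldh1l1 and Mthfd2l rose by 1.89 ± 0.16 and 1.67 ± 0.18 and Gcsh, part of the glycine cleavage system, fell by 1.15 ± 0.12. Of 13 other amino acid transporters 6 rose and 2 fell in that line, with the leucine carrier Slc43a2 higher by 1.01 ± 0.19 and Slc43a1 lower (−1.02 ± 0.21). The MITF x TFEB interaction was below 0 for 4 of the 16 eIF2 genes and above 0 for 1. It was below 0 for 3 and above 0 for 4 of the folate and glycine genes, and below 0 for 5 and above 0 for 1 of these transporters. The medians of the interaction were −0.06, 0.24 and −0.24.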

How the data were processed

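Messenger RNA of 24 libraries was sequenced by the authors with a 3′ end kit. Per the submitters' processing notes and the methods, reads were trimmed with Trim Galore 0.6.5 and cutadapt 2.10, mapped with STAR 2.7.8a to mm39 and normalized with edgeR. The counting tool, its strand setting and the annotation are not given in the sources used here. The deposited values are a normalized signal, CPM divided by TMM factors (recomputed at 0.925 to 1.072), not raw counts. Read numbers were rebuilt from the spacing of the values (100% of values within 0.1 of a read, 99.99% in the lowest library). Columns of other samples numbered 0.

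Lines were compared with limma 3.58.1 (variance trend) on log2(CPM + 1), a pseudocount of 1, with all 24 libraries in 1 fit of the line (16 residual degrees of freedom), and p-values were adjusted by the Benjamini-Hochberg method over 12010 genes. Fold changes on this scale understate those of low genes. No replicates agreed within sampling noise (chi-square per degree of freedom of at least 4.63). Neighbouring genes were the 100 nearest by mm39 position. Members and lists were chosen with earlier results of these data known. Full statistics were given for members called in at least 1 line against the parental cells, at most 5 per role, and for at most 4 called genes per list. The members' other statistics, in comparisons without the parental cells and for Asns and Slc6a9, were chosen after values were seen. Alternatives were edgeR 4.0.16 quasi-likelihood on the recovered reads, median-of-ratios size factors, pseudocounts of 0.25 and 5, a minimum mean CPM of 5, a replicate block, only the libraries compared, neighbour subtraction and each library left out. The fits were tested on simulated data with a fixed seed. R 4.3.3 and Python 3.11.15 were used. Promoters are from RefSeq (GRCm38.p6) and were placed on GRCm39 by exact match.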

Additional observations from a re-analysis of the deposited data

Results flagged for a closer look

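The following members differed between backgrounds by the test of the interaction itself (limma, adjusted over all genes) by at least 2-fold. The effect of TFEB loss was lower without MITF than with it by −3.83 (log2) for Trib3, −3.34 for Chac1, −3.02 for Slc7a11, −2.33 for Ddit3, −1.97 for Slc1a4, −1.91 for Gpt2, −1.80 for Atf4, −1.74 for Nupr1, −1.68 for Atf5, −1.43 for Pycr1, −1.41 for Slc3a2, −1.28 for Cebpb, −1.21 for Asns and −1.18 for Mthfd2. The effect of TFEB loss on Mthfd2 was higher without TFE3 than with it by 1.07.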

How the results depend on the processing

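Calls rest on 1 clone and 3 libraries per line, and Slc7a11 had as few as 11 reads in a library. The median of all genes moved by less than 0.05 (log2) under every scaling. On average replicate numbers did not pair the libraries (mean correlation of deviations 0.0222 for the same number and −0.0126 for others). Single pairs of libraries with the same number ranged from −0.66 to 0.77. With the replicate block the members below 0 in TFEB x TFE3 went from 0 to 1. No other count changed by more than the factor set for naming a change, and smaller changes of counts are not listed here. The number of members lower in the TFE3 KO, 2, was 0 with a pseudocount of 5 and 1 after neighbour subtraction, and the number higher, 0, was 1 in edgeR. Those lower in the MITF/TFEB DKO, 10, were 5 with a pseudocount of 5 and 6 after neighbour subtraction, and those lower against the MITF KO, 15, were 9 with a pseudocount of 5. MITF x TFEB above 0, 0, was 2 after neighbour subtraction. MITF x TFE3 above 0, 1, was 0 in edgeR and with median-of-ratios size factors. TFEB x TFE3 below 0, 0, was 1 in edgeR and with a pseudocount of 5, and 2 with size factors or the mean CPM filter. The cause was not tested.

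After neighbour subtraction, which left p-values as they were, Psat1 became 0.36 in the MITF/TFEB DKO, 0.22 for loss of MITF and 0.0134 for MITF x TFEB, Slc7a5 0.0021 for MITF x TFEB, Slc38a2 0.0815 for loss of MITF, and Atf3 −0.27 in the MITF/TFEB DKO. With single libraries left out, the members higher ranged from 4 to 7 in the MITF KO, 1 to 3 in the MITF/TFE3 DKO, 0 to 1 in the TFE3 KO, 0 to 4 for loss of TFE3 and 0 to 3 for MITF x TFE3. The members lower ranged from 0 to 2 in the TFE3 KO, 7 to 12 in the MITF/TFEB DKO, 2 to 5 for MITF x TFE3 and 0 to 2 for TFEB x TFE3.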

Other observations

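Within lines, 4 members of amino acid synthesis and import varied widely between libraries. In the TFEB KO Aldh18a1 had 5.75, 30.9 and 11.1 CPM, Psph 16.1, 42.2 and 19.3 CPM, Phgdh 84.3, 184 and 127 CPM and Slc7a5 70.8, 131 and 67.5 CPM, with replicate 2 highest in each. Aldh18a1 was highest in replicate 2 of the TFE3 KO (15.7, 38.3 and 25.8 CPM) and of the TFEB/TFE3 DKO (12.6, 26.8 and 11.6 CPM) as well. Replicate 2 of the TFEB KO was the highest of its line for 21 of the 34 members (61.8%) and for 35.8% of all genes. These members were chosen after their values were seen.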
